A study of Mus musculus with 4 samples.

Results

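The genes described here are 34 transcripts of myeloid cells, the macrophages, monocytes, neutrophils and dendritic cells of the innate immune system, read in RNA of sorted mammary tumor cells. They were chosen by gene symbol from a list, and all 34 were found among the 54532 genes of the deposited count table. In the text, paired values are library 1 and then library 2 of the group. The mice carried mammary fat pad tumors grown from injected cells of the MMTV-PyMT line, in which the MMTV promoter drives the polyoma middle T antigen, on a C57BL/6 background. An mCherry reporter of Dll1 marked the cells that were kept. The irradiated group, irradiated 1 and irradiated 2, came from tumors given targeted radiation on day 30, and the unirradiated group, unirradiated 1 and unirradiated 2, from tumors left without it. Both groups are mCherry-positive cells with the same strain and source labels. The labels do not say whether replicate libraries are from different animals, so a p-value reflects the spread among these 4 libraries, and that spread may be technical.

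Macrophages depend on the growth factor receptor Csf1r and on the transcription factor PU.1, the product of Spi1, and they clear debris through scavenger, Fc and complement receptors. In mammary tumors driven by polyoma middle T, macrophages are abundant immune cells. These cells carry CD45, the product of Ptprc, on their surface. The digested tumors were stained for CD45, CD31 and TER119 ahead of the mCherry sort, a step meant to enrich for tumor cells. In bulk RNA, fewer cells of a type and less RNA per cell cannot be told apart.

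The libraries held between 16811888 and 20817997 counted reads. Values are counted reads scaled to a common library size, CPM, adjusted by the TMM method. The 12 epithelial markers summed to 12342 CPM in irradiated 1 and 10133 CPM in irradiated 2, against 11976 and 11513 CPM in the unirradiated libraries. Irradiated 2 stood apart: markers of blood, vessel and connective tissue cells were also highest there, as described further on. For that reason levels below are given for each irradiated library. Fitted log2 fold changes, p-values and list medians pool both, unless a library is said to be left out.

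Most myeloid transcripts were several-fold higher in irradiated 1 than without radiation, and higher again in irradiated 2. Across the 33 members with reads in irradiated 1, the CPM ratio of irradiated 2 over irradiated 1 had a median of 8.86. For 31 of the 34 members each irradiated value exceeded each unirradiated value, and for 0 the reverse held. Of the 32 members tested 30 were above in this way. Among all 15993 tested genes 20.3% lay above and 20.0% below. Of the remaining 3, Cd14 and Cd163 overlapped between the groups, and Marco had 1 read in all 4 libraries together. The edgeR quasi-likelihood test with Benjamini-Hochberg adjustment called 0 members higher and 0 lower at an adjusted p of 0.05, as it did for all genes (0% higher and 0% lower), and the smallest adjusted p of a member was 0.489.

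**Figure D1:**
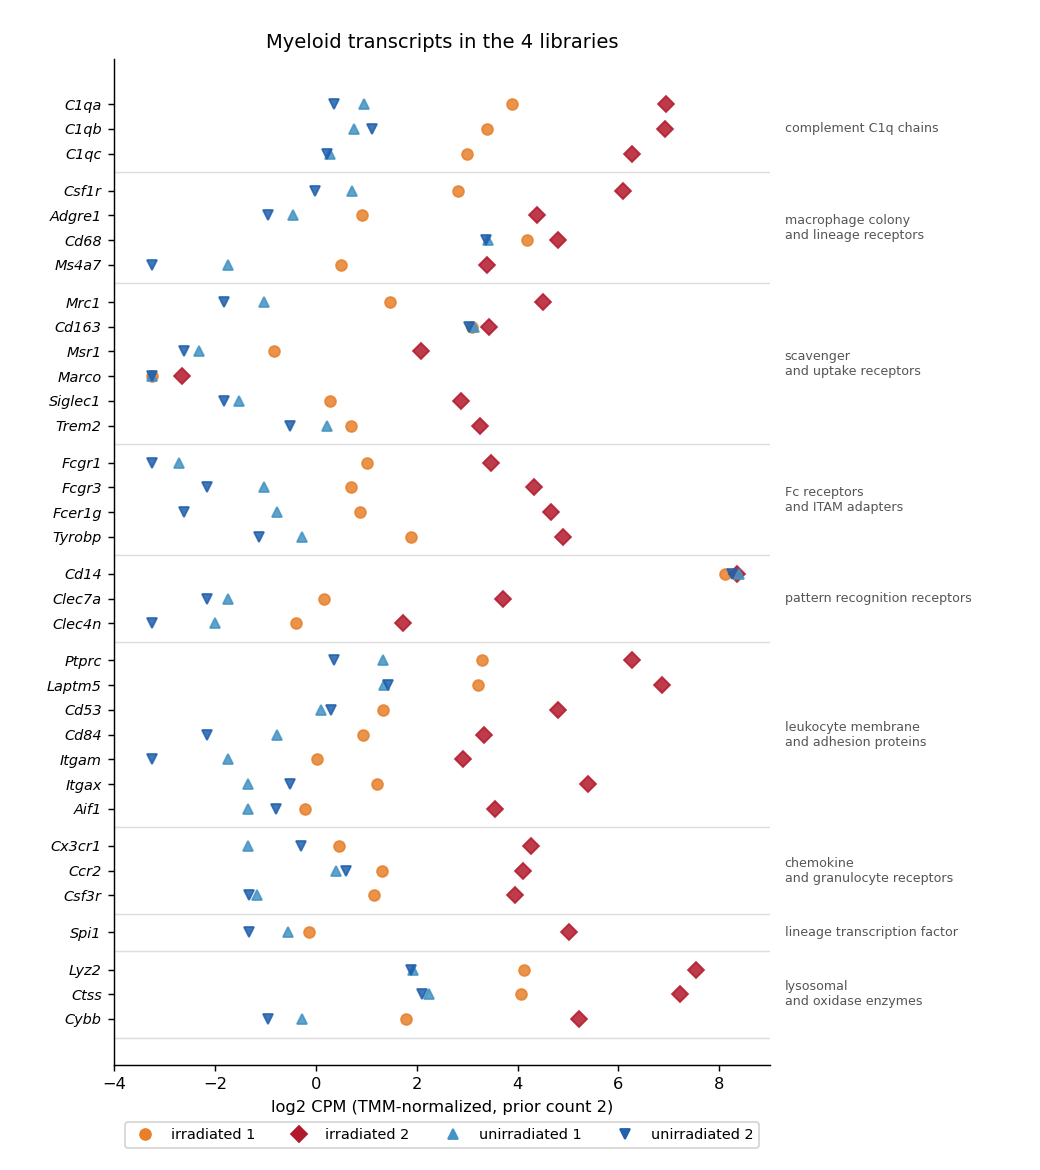
Each row is 1 gene, grouped by role, and each marker is 1 library; the horizontal axis is log2 CPM after TMM scaling with a prior count of 2. Irradiated 2 is farthest right in 33 of 34 rows (it is highest for 5125 of 15993 tested genes), and Cd14 is the row where it is not. Irradiated 1 lies between irradiated 2 and the unirradiated pair in most rows. In Cd163 and Marco the 3 markers besides irradiated 2 lie close together.

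At an unadjusted p under 0.05 edgeR held 30 of the 32 members tested, all higher, against 6.82% of all tested genes on the higher side and 2.44% on the lower side. The median fitted log2 fold change was 4.77 over those 32 members and 0.00396 over all tested genes. Of the 32 members, 18 passed the filter on low counts only through the irradiated libraries, where they are high, so this median and the counts of tested members called, here and by the other tools, are descriptions and no support; over all 34 members in a fit with no filter it was 4.75. Msr1 and Marco were not tested. DESeq2 called 26 of the 32 members higher, against 2.96% of all genes to which it gave an adjusted p. Limma-voom called 0 of 32 and held 3 at an unadjusted p under 0.05. The edgeR fit with no filter on low counts called 31 of 34 members higher, against 4.86% of its genes.

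Each irradiated library was also set against the unirradiated pair alone. In the edgeR fit of irradiated 1 against that pair the median log2 fold change was 2.42 over 32 members. In the fit of irradiated 2 against the same pair it was 5.58 over 33 members. Each of these fits assumes that the single irradiated library would spread as the unirradiated pair does, so its calls are no support.

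**Figure D2:**
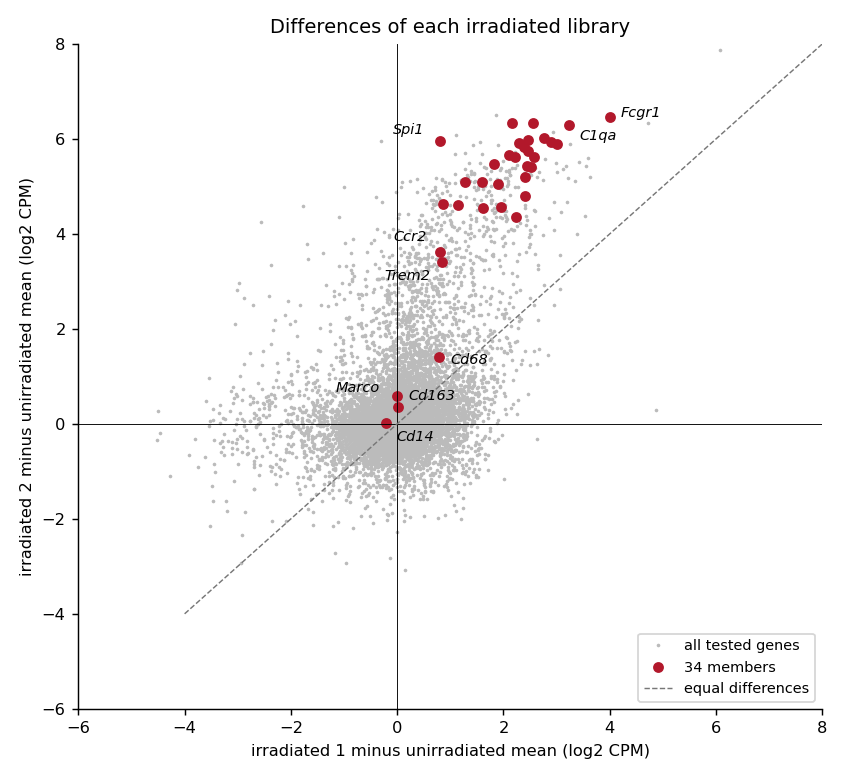
Each point is a gene; the axes give log2 CPM of irradiated 1 (horizontal) and irradiated 2 (vertical) minus the mean of the unirradiated libraries. Most members sit above the dashed line of equal differences, around 2.18 on the horizontal and 5.42 on the vertical axis (the medians of the 34), while Cd14, Cd163 and Marco sit near the origin and Spi1 lies at 0.80 and 5.95.

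The C1q chains start the classical complement pathway and are made mainly by macrophages. C1qa had 14.6 CPM in irradiated 1 and 123 CPM in irradiated 2, against 1.83 and 1.18 CPM without radiation. C1qb was at 10.4 and 121 CPM with radiation against 1.59 and 2.06 CPM without. C1qc was at 7.92 and 77.0 CPM with radiation against 1.11 and 1.06 CPM without. The 3 genes lie side by side on chromosome 4 of mm10, between 136880129 and 136898803, and their levels kept the same order, C1qc lowest, in each irradiated library. Their fitted log2 fold changes were 5.49 (SE 1.18), 5.17 (SE 1.29) and 5.28 (SE 1.22), each with an edgeR adjusted p of 0.489. DESeq2 gave adjusted p-values of 0.00299, 0.0156 and 0.00737.

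Among lineage receptors, Csf1r, the receptor for the macrophage growth factors CSF1 and IL-34, was at 6.91 and 68.5 CPM with radiation against 1.54 and 0.885 CPM without. Adgre1, which encodes the macrophage surface protein F4/80, was at 1.77 and 20.8 CPM with radiation against 0.626 and 0.413 CPM without. Ms4a7, a four-span membrane protein gene of macrophages, was at 1.31 and 10.4 CPM with radiation against 0.192 CPM in unirradiated 1 and 0 reads in unirradiated 2. Cd68, which encodes a lysosomal membrane protein used as a macrophage marker, differed far less, at 18.1 and 27.8 CPM with radiation against 10.5 and 10.3 CPM without (log2 fold change 1.14, SE 0.26, edgeR adjusted p = 0.489). The unirradiated libraries already held 218 and 175 Cd68 reads, when they held 32 and 15 of Csf1r.

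Among scavenger and uptake receptors, Mrc1, the mannose receptor gene of alternatively activated macrophages, was at 2.67 and 22.5 CPM with radiation against 0.385 and 0.177 CPM without, and Siglec1, a sialic acid receptor gene, at 1.11 and 7.25 CPM with radiation against 0.241 and 0.177 CPM without. Msr1, the class A scavenger receptor gene, had 9 and 78 reads with radiation against 2 and 1 without. Trem2, a lipid-sensing receptor gene of tumor macrophages, was at 1.51 and 9.38 CPM with radiation against 1.06 and 0.590 CPM without. For Trem2, irradiated 1 was 1.78 times the unirradiated pair, with a counting interval of 1.05 to 3.03. Cd163, the hemoglobin scavenger receptor gene, did not follow the others, at 8.42 and 10.7 CPM with radiation against 8.66 and 8.08 CPM without (log2 fold change 0.19, SE 0.24, edgeR adjusted p = 0.874). Marco, a scavenger receptor gene of alveolar and marginal zone macrophages, had 0 and 1 reads with radiation against 0 and 0 without, where a count of 0 allows up to 0.151 CPM in irradiated 1 and 0.144 and 0.177 CPM in the unirradiated libraries.

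Fcgr1, the high-affinity IgG receptor gene, had the largest fitted difference of the members tested. It held 38 and 206 reads with radiation against 1 and 0 without. Irradiated 1 was 72.3 times the unirradiated pair, but with 1 read in that pair the counting interval ran from 12.2 to 2931. Fcgr3, a low-affinity IgG receptor gene, was at 1.51 and 19.8 CPM with radiation against 0.385 and 0.118 CPM without. Fcer1g and Tyrobp encode small adapters whose ITAM motifs carry the signal of the receptors that each pairs with. Fcer1g was at 1.72 and 25.1 CPM with radiation against 0.481 and 0.0590 CPM without, and Tyrobp at 3.58 and 30.0 CPM with radiation against 0.722 and 0.354 CPM without. All 4 genes had no overlap between the groups, with the irradiated values above, against 20.3% of all tested genes.

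The pattern recognition receptors divided. Clec7a, which encodes the beta-glucan receptor dectin-1, was at 1.01 and 12.95 CPM with radiation against 0.192 and 0.118 CPM without. Clec4n, which encodes dectin-2, had 13 and 60 reads with radiation against 3 and 0 without. Cd14, the coreceptor for bacterial lipopolysaccharide, was the most abundant member in every library, at 276 and 325 CPM with radiation against 335 and 304 CPM without. The groups overlapped, and its log2 fold change was -0.088 (SE 0.14, edgeR adjusted p = 0.904). Cd14 was the largest single part of the summed level of the 34 members, which was 432 and 1677 CPM with radiation against 383 and 346 CPM without. Without Cd14, Cd163 and Cd68, left out after their values were seen, the other 31 members summed to 130 and 1314 CPM with radiation against 29.2 and 24.2 CPM without.

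Ptprc encodes CD45, which was among the proteins stained ahead of the sort. How its RNA level relates to that stain was not tested. The Ptprc level was 9.63 CPM and 77.2 CPM with radiation against 2.41 and 1.18 CPM without (log2 fold change 4.57, SE 1.12, edgeR adjusted p = 0.489). Relative to the unirradiated pair this was 5.19 times in irradiated 1 (counting interval 3.93 to 6.93) and 41.6 times in irradiated 2 (32.8 to 53.7). Laptm5, a lysosomal protein gene of blood cells, was at 9.18 and 117 CPM with radiation against 2.45 and 2.60 CPM without. Cd53, a tetraspanin gene of leukocytes, was at 2.42 and 27.8 CPM with radiation against 0.962 and 1.12 CPM without, and Cd84, a SLAM family receptor gene, at 1.82 and 10.02 CPM with radiation against 0.481 and 0.118 CPM without. Itgam and Itgax encode the integrin chains CD11b and CD11c. Itgam held 18 and 139 reads with radiation against 4 and 0 without, and Itgax 44 and 786 reads with radiation against 6 and 10 without. Aif1, which encodes the actin-binding protein IBA1, held 15 and 219 reads with radiation against 6 and 8 without. In all 7 genes of this role the groups did not overlap, with the irradiated values the higher ones, against 20.3% of all tested genes.

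Of the migratory and granulocyte receptors, Ccr2, which draws monocytes toward Ccl2, was at 2.37 and 17.2 CPM with radiation against 1.20 and 1.42 CPM without. Cx3cr1, the fractalkine receptor gene, was at 1.26 and 19.2 CPM with radiation against 0.289 and 0.708 CPM without. Csf3r, the receptor gene for the neutrophil growth factor G-CSF, was at 2.12 and 15.2 CPM with radiation against 0.337 and 0.295 CPM without. Among the enzymes, Lyz2, the lysozyme gene of myeloid cells, was at 17.4 and 185 CPM with radiation against 3.71 and 3.60 CPM without, Ctss, which encodes the lysosomal protease cathepsin S, at 16.7 and 148 CPM with radiation against 4.62 and 4.19 CPM without, and Cybb, the catalytic subunit gene of the phagocyte oxidase, at 3.33 and 37.4 CPM with radiation against 0.722 and 0.413 CPM without. Lyz2 and Ctss were the most abundant members after Cd14 in irradiated 2.

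Spi1 encodes PU.1, and it differed from the other members in the size of its ratio between the irradiated libraries. It held 16 reads in irradiated 1 and 603 in irradiated 2, against 12 and 5 in the unirradiated libraries. The ratio of irradiated 2 over irradiated 1 was 39.8, with a counting interval of 24.3 to 70.1, the highest of the 33 members with a ratio. Irradiated 1 was 1.79 times the unirradiated pair with an interval of 0.847 to 3.77, so a difference of irradiated 1 from that pair was not detectable at this depth. The log2 fold change over both irradiated libraries was 5.20 (SE 1.77, edgeR adjusted p = 0.503), and it rested on irradiated 2: without that library it was 0.84. In the same fit Trem2 was at 0.834, Ccr2 at 0.847 and Aif1 at 0.99, so a small difference in irradiated 1 was not particular to Spi1.

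The ratio of irradiated 2 over irradiated 1 was then compared among members. At least 4-fold higher in irradiated 2 than in irradiated 1 were 30 of the 34 members, 29 of them tested, against 5.63% of tested genes. The central quartiles of the ratios lay between 7.20 and 11.8. Of the 34 counting intervals at 95%, 20 held the median of 8.86, 9 lay above it and 5 below. The 9 above were C1qb, Fcgr3, Fcer1g, Laptm5, Itgax, Aif1, Cx3cr1, Spi1 and Lyz2. The 5 below were Fcgr1 at 5.73, Cd84 at 5.52, Cd68 at 1.54, Cd163 at 1.27 and Cd14 at 1.18. Intervals come from single libraries and cover counting error only, and these ratios were not tested.

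**Figure D3:**
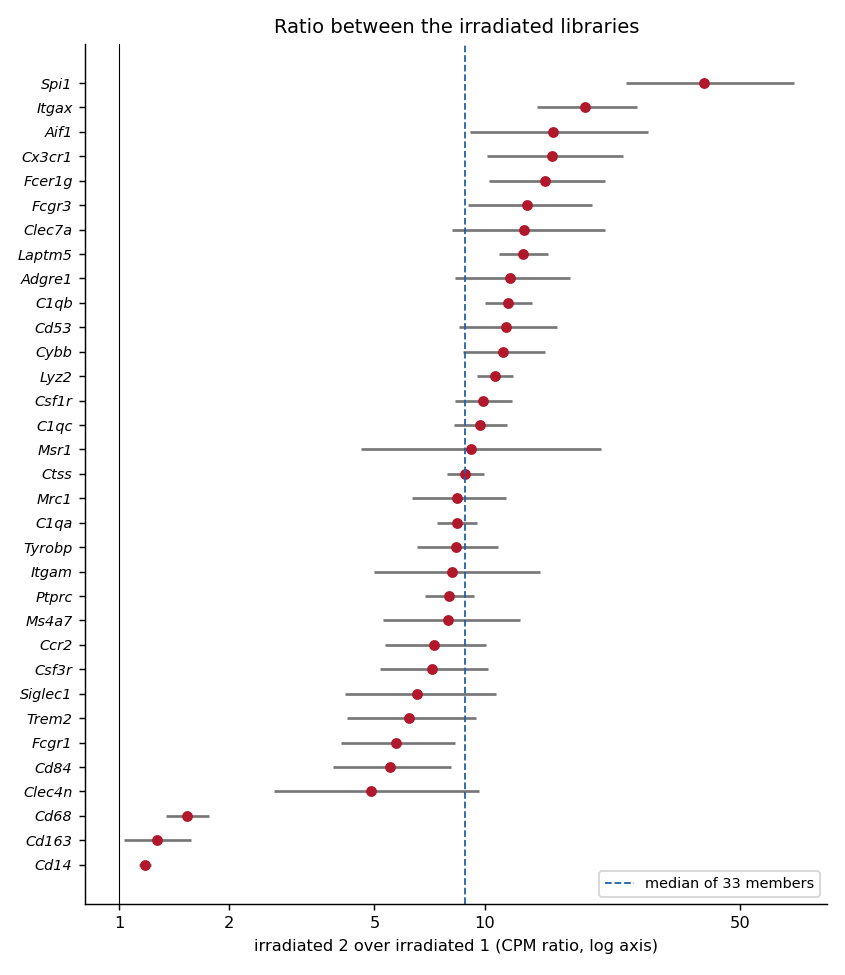
Each point is the CPM ratio of irradiated 2 over irradiated 1 for 1 member, on a log axis, with its exact 95% counting interval as a bar; Marco, with no read in irradiated 1, is not drawn. Most points gather around the dashed median of 8.86, Spi1 lies far to the right at 39.8, and Cd68, Cd163 and Cd14 are the 3 lowest, at 1.54, 1.27 and 1.18.

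The ratio of irradiated 1 over the unirradiated pair had a median of 5.55 over 33 members, and the counting interval lay above 1 for 29, held 1 for 3 (Cd163, Aif1 and Spi1) and lay below 1 for Cd14, at 0.859. C1qa at 9.52 and Fcgr1 had intervals above that median. The intervals of 11 members lay below it, among them Ctss at 3.78, Laptm5 at 3.65, Cx3cr1 at 2.64, Cd53 at 2.34, Ccr2 at 1.83 and Trem2 at 1.78. Between the unirradiated libraries the ratio of unirradiated 1 over unirradiated 2 had a median of 1.36 over the 29 members with a value. Its interval lay above 1 for Ptprc, Fcer1g and Cd14 and below 1 for 0 members.

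Divided by gene length, the level of the members in RPKM, which is CPM per kilobase of gene length, was ranked in each library. In irradiated 2, after Cd14 at 207 RPKM came Lyz2 at 141, C1qa at 118, C1qb at 111 and Ctss at 109 RPKM, then Tyrobp at 44.9 and C1qc at 39.9 RPKM. In irradiated 1 Cd14 was at 175 RPKM, followed by Cd68 at 14.4, C1qa at 14.1, Lyz2 at 13.2 and Ctss at 12.3 RPKM. In the unirradiated libraries Cd14 was at 213 and 193 RPKM, Cd68 at 8.35 and 8.21 RPKM, Ctss at 3.40 and 3.08 RPKM, and Cd163 at 1.59 and 1.48 RPKM. Cd163 was thus 28th of 34 in irradiated 2 and the sixth in both unirradiated libraries. Spearman's rho of RPKM over the 34 members was 0.87 between irradiated 1 and irradiated 2, 0.805 between irradiated 2 and unirradiated 1 and 0.89 between the unirradiated libraries, a description only, since the points share a library and the gene lengths.

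PU.1 binds purine-rich sites whose core is GAGGAA, so promoters of the members were searched for these 6 letters on both strands. RefSeq promoters on GRCm38.p6, from 250 bases before the start site to 50 after it, were matched for 25 of the 34 members. The core was found for 19 of these 25 genes (76.0%), against 31.3% of the 27025 genes with a promoter in the same table. The AP-1 site TGANTCA was found for 6 of 25 (24.0%), against 8.97% of all. The sequences below show 5 genes with the core, which are a pair of C1q genes, Fcgr1, Cd53 and Cd68, and 2 without it, Cd163 and Itgax. They lie at chr4:136886151-136886450 (C1qb), chr4:136892865-136893164 (C1qc), chr3:96293920-96294219 (Fcgr1), chr3:106790100-106790399 (Cd53) and chr11:69666121-69666420 (Cd68), all on the minus strand, and at chr6:124304401-124304700 (Cd163) and chr7:128129300-128129599 (Itgax) on the plus strand. Each is printed 5′ to 3′ in the sense of its gene, with the core in capitals on either strand.
C1qb: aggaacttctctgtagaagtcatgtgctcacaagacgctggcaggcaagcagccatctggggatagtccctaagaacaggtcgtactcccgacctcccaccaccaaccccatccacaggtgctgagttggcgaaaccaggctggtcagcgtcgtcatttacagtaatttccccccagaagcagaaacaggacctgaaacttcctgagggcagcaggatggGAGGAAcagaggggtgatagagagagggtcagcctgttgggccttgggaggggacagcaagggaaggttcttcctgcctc
C1qc: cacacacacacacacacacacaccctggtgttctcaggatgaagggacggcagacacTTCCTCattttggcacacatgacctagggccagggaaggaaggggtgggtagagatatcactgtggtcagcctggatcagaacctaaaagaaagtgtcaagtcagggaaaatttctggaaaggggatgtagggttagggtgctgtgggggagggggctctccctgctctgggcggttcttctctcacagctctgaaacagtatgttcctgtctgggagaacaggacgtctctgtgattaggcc
Fcgr1: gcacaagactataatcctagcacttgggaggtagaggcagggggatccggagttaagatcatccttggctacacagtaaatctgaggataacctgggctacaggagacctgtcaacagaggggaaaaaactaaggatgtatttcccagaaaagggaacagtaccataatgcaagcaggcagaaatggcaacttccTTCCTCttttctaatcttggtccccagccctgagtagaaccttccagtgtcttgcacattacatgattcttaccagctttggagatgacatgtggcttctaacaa
Cd53: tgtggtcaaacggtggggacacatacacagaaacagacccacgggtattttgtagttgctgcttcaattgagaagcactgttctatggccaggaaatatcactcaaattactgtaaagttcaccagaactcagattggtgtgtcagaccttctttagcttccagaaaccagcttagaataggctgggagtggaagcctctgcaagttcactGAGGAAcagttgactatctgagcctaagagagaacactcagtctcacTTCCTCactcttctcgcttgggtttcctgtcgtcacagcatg
Cd68: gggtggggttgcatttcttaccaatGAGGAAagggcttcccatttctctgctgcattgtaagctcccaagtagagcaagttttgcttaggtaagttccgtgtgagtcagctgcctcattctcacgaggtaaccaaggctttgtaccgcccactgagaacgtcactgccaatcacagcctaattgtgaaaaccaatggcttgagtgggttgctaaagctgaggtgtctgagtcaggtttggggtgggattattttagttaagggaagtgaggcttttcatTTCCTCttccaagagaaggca
Cd163: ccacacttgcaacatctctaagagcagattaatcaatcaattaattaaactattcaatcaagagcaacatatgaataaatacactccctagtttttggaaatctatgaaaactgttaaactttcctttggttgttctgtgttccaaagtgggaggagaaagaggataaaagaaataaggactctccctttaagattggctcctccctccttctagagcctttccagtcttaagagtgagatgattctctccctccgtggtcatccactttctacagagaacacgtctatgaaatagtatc
Itgax: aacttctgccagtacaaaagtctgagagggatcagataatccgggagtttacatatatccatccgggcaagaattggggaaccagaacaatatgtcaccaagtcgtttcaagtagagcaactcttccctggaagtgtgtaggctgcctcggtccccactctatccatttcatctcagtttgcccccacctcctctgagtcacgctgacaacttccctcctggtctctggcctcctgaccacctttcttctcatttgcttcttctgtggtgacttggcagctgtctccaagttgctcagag

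In C1qb the core began 30 bases before the start site and in Fcgr1 55 bases before it. Cd53 had a core 39 bases before its start site and another within the first 50 bases of the transcript, and Cd68 had 2 as well. Cd163 and Itgax had 0, as did Fcer1g, Lyz2, Cx3cr1 and Ccr2. Of these 6 genes without the core, 5 had irradiated values above both unirradiated ones (20.3% of all tested genes did), and Cd163 did not. A match is a description of the letters in these windows and not a binding site.

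**Figure D4:**
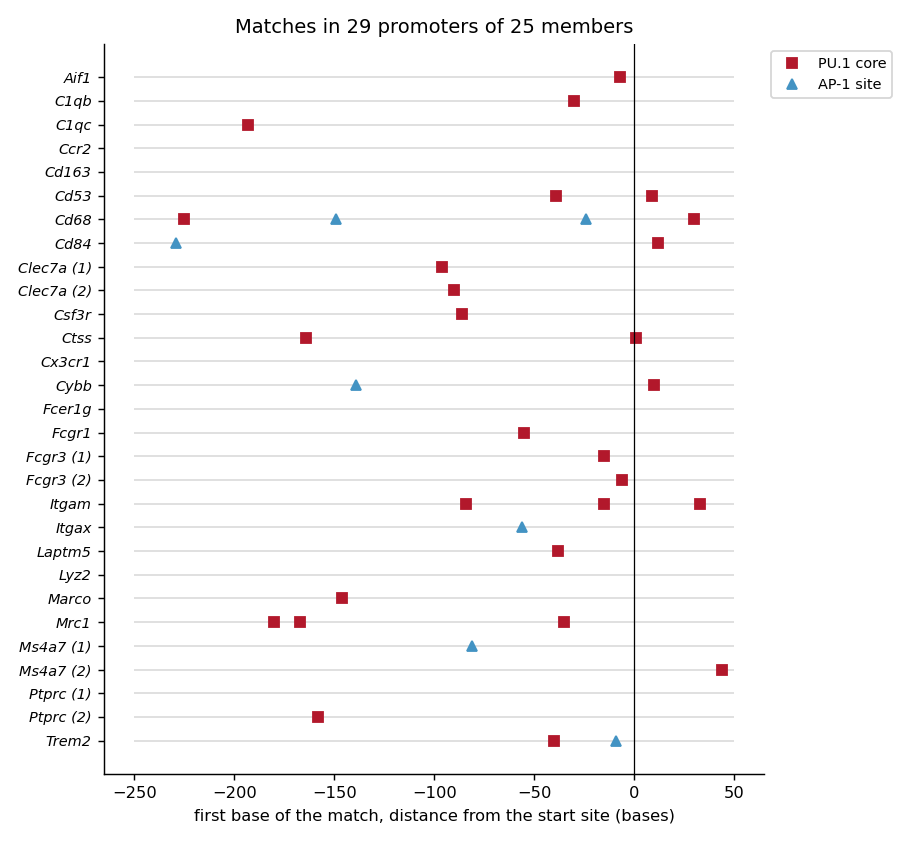
Each row is 1 RefSeq promoter of a member, with squares for the PU.1 core and triangles for the AP-1 site at the distance in bases from the start site. In all, 21 of the 29 promoters hold the core and 6 the AP-1 site; a number after a symbol tells apart the promoters of 1 gene.

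Other genes of the myeloid program were examined as a list. Of 40 further myeloid genes, 32 had non-overlapping groups with the irradiated values higher and 0 with them lower. Among all tested genes 20.3% lay above and 20.0% below. All 40 were highest in irradiated 2, as were 5125 of all 15993 tested genes. Of the list, 33 were tested by edgeR and 0 passed either way. Their median log2 fold change was 4.02, against 0.00396 over all tested genes. Genes low without radiation can pass the filter only through the irradiated libraries, so list medians here and below are descriptions and no support. Of the 4 with the highest RPKM, 3 differed less. Lcp1, which encodes the actin bundler L-plastin, was at 148 and 242 CPM with radiation against 167 and 158 CPM without, Cyba, the other membrane subunit gene of the phagocyte oxidase, at 9.13 and 41.4 CPM with radiation against 14.2 and 11.3 CPM without, and Sirpa, the receptor gene for the signal that blocks engulfment, at 35.0 and 69.0 CPM with radiation against 36.5 and 37.2 CPM without. Coro1a, an actin regulator gene of leukocytes, was at 9.28 and 102 CPM with radiation against 2.89 and 2.83 CPM without. Macrophages, dendritic cells and B cells share the class II antigen presentation genes. These summed to 153 and 1864 CPM with radiation against 61.8 and 47.7 CPM without. Of these 7 genes 5 lay above and 0 below, beside the same 20.3% and 20.0% of all tested genes.

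Genes tied to macrophage states were counted in the same way, beside the 20.3% of all tested genes above and 20.0% below. Of 10 lipid-handling macrophage genes 3 lay above and 3 below, near that background, with a median log2 fold change of 0.18 and 0 passing edgeR. Apoe, the apolipoprotein E gene, was at 225 and 817 CPM with radiation against 127 and 119 CPM without, while Spp1, the osteopontin gene, was at 1158 and 732 CPM with radiation against 792 and 741 CPM without. Of 13 tissue-resident macrophage genes 8 lay above and 1 below (median 1.29, 0 of 10 tested passing). Gas6, a ligand gene of TAM receptors, was nearly level, at 268 and 268 CPM with radiation against 249 and 238 CPM without. Of 10 genes of inflammatory and alternative activation 8 lay above and 0 below (median 2.78, 0 of 8 tested passing). Il1b, the interleukin-1 beta gene, was at 2.62 and 29.1 CPM with radiation against 0.818 and 0.767 CPM without, and Retnla, a gene of alternative activation, at 1.11 and 26.4 CPM with radiation against 0.192 and 0.590 CPM without. Tnf was at 203 and 199 CPM with radiation against 195 and 193 CPM without.

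Of 10 genes for ligands of myeloid receptors 6 lay above and 2 below, beside 20.3% and 20.0% of all tested genes. The 2 below were near that background. The list had a median log2 fold change of 0.65, with 0 of 9 tested passing. Csf1, whose product binds Csf1r, was at 101 and 103 CPM with radiation against 80.0 and 96.4 CPM without. Cx3cl1, the fractalkine gene, lay below, at 166 and 140 CPM with radiation against 190 and 196 CPM without (log2 fold change -0.34, edgeR adjusted p = 0.539). Ccl2, the ligand gene of Ccr2, lay above, at 25.3 and 38.3 CPM with radiation against 13.4 and 10.5 CPM without. Csf3, which encodes the ligand of Csf3r, was at 93.0 and 62.3 CPM with radiation against 108 and 101 CPM without.

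Markers of several other cell types were also higher in irradiated 2, and their part in these results was not tested. Against 5125 of all 15993 tested genes, 11 of 12 neutrophil markers were highest in irradiated 2. Their sum was set by Ltf, a lactoferrin gene that mammary epithelium also expresses, and Ly6g and Stfa2l1 had 0 reads in both unirradiated libraries. The 10 dendritic cell markers summed to 11.8 and 50.9 CPM with radiation against 5.82 and 8.79 CPM without. Mast cell and basophil markers were at 7.72 and 17.8 CPM with radiation against 3.80 and 3.95 CPM without, with Fcer1a, Cpa3, Mcpt4, Ms4a2 and Mcpt8 at 0 reads in both unirradiated libraries. Only 3 of these 9 markers were highest in irradiated 2, near the share of all tested genes (5125 of 15993). Over the 9, the median log2 difference of irradiated 2 from the unirradiated mean was 0.049. A marker at 0 reads without radiation was therefore not read as higher with it. In irradiated 2, Gata2 at 9.86 CPM and Hdc at 7.52 CPM made up most of the sum. Cma1, a mast cell protease gene, had 12 and 1 reads with radiation against 2 and 3 without. Mcpt4 had 7 and 0 reads with radiation. The 10 monocyte markers summed to 2166 and 1895 CPM with radiation against 2135 and 2118 CPM without, nearly all from Nr4a1, an immediate early gene of many cell types. By gene, 8 of these 10 were highest in irradiated 2, 5 had irradiated values above both unirradiated ones and 0 below. Over all tested genes 20.3% lay above and 20.0% below. Plac8 was at 6.51 and 24.5 CPM with radiation against 3.46 and 4.54 CPM without.

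Markers of cells outside the myeloid lineage were also summed. T and NK cell markers summed to 10.3 and 117 CPM with radiation against 4.76 and 4.60 CPM without, and B and plasma cell markers to 34.5 and 168 CPM with radiation against 9.58 and 8.14 CPM without. Endothelial markers, whose CD31 protein was another target of the sort, summed to 57.9 and 967 CPM with radiation against 35.5 and 32.1 CPM without. Fibroblast and pericyte markers summed to 933 and 6313 CPM with radiation against 745 and 762 CPM without, and red cell markers to 5.85 and 35.1 CPM with radiation against 2.02 and 4.36 CPM without. Over irradiated 1, irradiated 2 was at 16.7 times the summed endothelial level and 11.3 times that of T and NK cells. It was at 6.76 times that of fibroblasts and pericytes and 4.89 times that of B and plasma cells. For the 34 members, whose sum holds the large share of Cd14, the factor was 3.88. For the 31 members without Cd14, Cd163 and Cd68, left out after their values were seen, it was 10.1. Against the unirradiated mean, irradiated 1 was at 3.89 times for B and plasma cells and 2.20 times for T and NK cells. By gene, the median log2 difference of the T and NK markers in irradiated 1 was 0.48. Of these 14 markers, 8 had both irradiated values above and 0 below, beside 20.3% and 20.0% of all tested genes. Trac had 1 read in irradiated 1 against 5 and 3 without radiation, while Lck had 76 reads against 42 and 43. Irradiated 1 was at 1.71 times for endothelium and 1.24 times for fibroblasts and pericytes. For the 34 members it was at 1.18 times, and for the same 31 members at 4.87 times. By role, that factor of irradiated 1 ran between 0.868 for the pattern recognition receptors and 8.05 for the Fc receptors and adapters. The low end was set by Cd14, which held 276 of the 277 CPM of its role in irradiated 1. Clec7a and Clec4n, the other genes of that role, were at 6.35 and 8.25 times the unirradiated pair there. These ratios between lists were not tested.

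**Figure D5:**
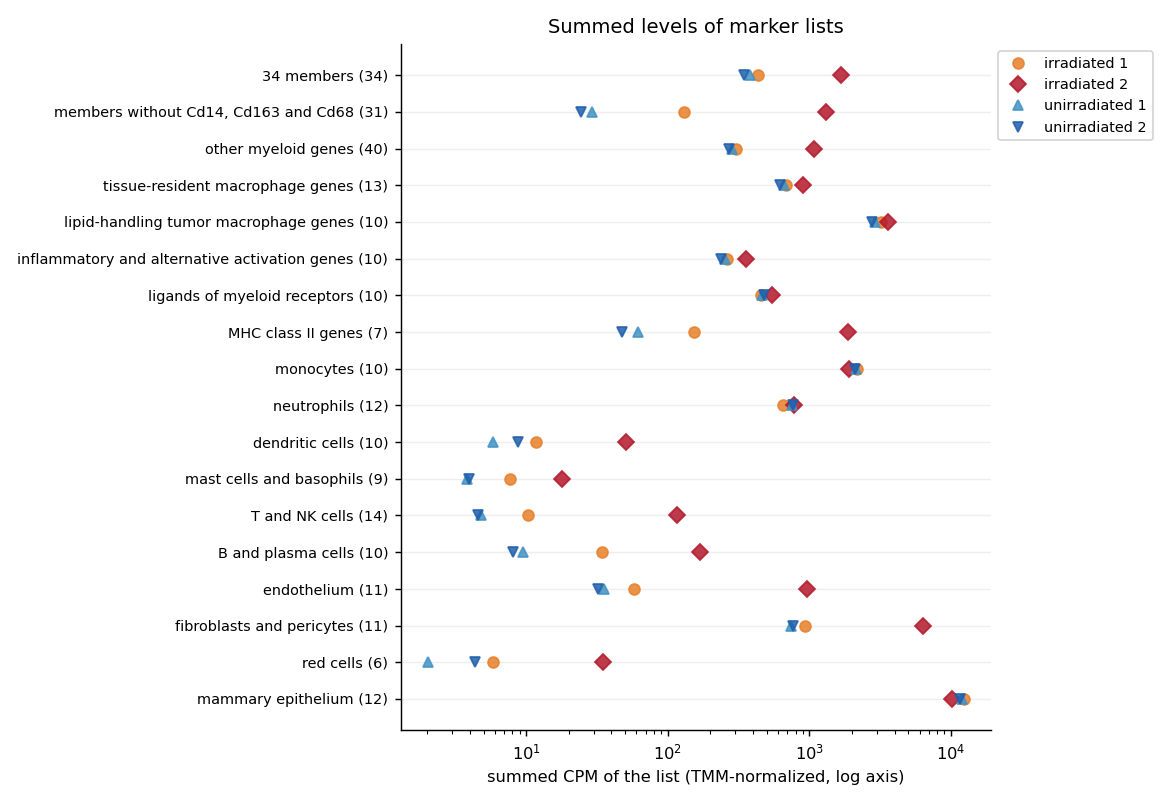
Each row is a list of marker genes with its number of genes in brackets, and each marker is the summed CPM of the list in 1 library, on a log axis. Irradiated 2 is highest for most lists and lowest for the mammary epithelium and monocyte lists. The row of members without Cd14, Cd163 and Cd68 was made after their values were seen.

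By likeness of profile, the 5 genes outside the 34 that lay nearest to the members' mean over the 4 libraries were Stab1, Il2rg, Fyb, Plcb2 and Itgb2. Likeness was the sum of squared differences of centred log2 CPM, among genes with an average log2 CPM of at least 1. Stab1, which encodes the scavenger receptor stabilin-1, was the nearest, at 13.2 and 103 CPM with radiation against 4.28 and 3.36 CPM without. Itgb2, the integrin chain gene that pairs with CD11b and CD11c, was at 4.84 and 38.0 CPM with radiation against 1.44 and 0.885 CPM without. With 4 libraries, of which 1 stands apart, such a likeness says little beyond the order of the libraries.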

How the data were processed

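Poly(A) RNA of 2 irradiated and 2 unirradiated libraries was analysed. The authors deposited raw counts per gene; the submitters' processing notes name STAR 2.5, HTSeq 0.6.1, DESeq2 and mm10, and no release of the annotation is named (not given in the sources used here). Per the labels' protocols the library kit was not directional. One file holds all 4 libraries, and it gave the same counts as the other files at all 54532 genes.

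Groups and replicate numbers come from the labels. Counts were tested across all genes with edgeR 4.0.16 in R 4.3.3: filterByExpr (minimum count 10, minimum total 15) kept 15993 genes, libraries were scaled by TMM, and the two-sided quasi-likelihood test was adjusted by Benjamini-Hochberg with a threshold of 0.05. The SE is the log2 fold change divided by the root of the test's F. The log2 CPM values use a prior count of 2. With 2 libraries on each side the smallest p of an exact permutation test is 0.333, so none was run. Counting intervals of ratios are exact binomial at 95% (SciPy 1.17.1) and cover counting error only, as does the limit of 3 counts allowed by a 0. RPKM divides CPM by the gene length of the deposited table.

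The members and lists were chosen with earlier results of these data known. All members were named; from each other list the names come from its 4 genes with the highest mean RPKM, besides markers at 0 without radiation. Alternatives were other scalings, other filters, a block for the replicate number, leaving out single libraries, an adjusted p of 0.1, DESeq2 1.42.0 and limma-voom (limma 3.58.1). The edgeR step was tested on simulated data.

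Of the 34 members 32 have the same position in GENCODE M21. In that annotation Itgam shares 68.7% of its exon bases with the same-strand gene Gm49368, which had 2 reads in all libraries, so Itgam may be undercounted. Csf1r shares 15.1% with the antisense gene Hmgxb3. Fcgr3 and Lyz2 have near copies, so reads shared between copies make their values uncertain.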

Additional observations from a re-analysis of the deposited data

How the results depend on the processing

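The direction of every tested member held in each alternative run, except Cd163 without irradiated 2 (log2 fold change -0.00665) and Cd14 without irradiated 1 (0.0114). Over single libraries left out, Cd163 ran between -0.00665 and 0.34 and Cd14 between -0.225 and 0.0114. The count of members called higher was 0 under each other scaling, the stricter filter of CPM above 1 in 2 libraries, an adjusted p of 0.1 and limma-voom. It was 31 with no filter and 26 by DESeq2; the cause was not tested. Over all genes no filter gave 1338 higher and 105 lower, and DESeq2 gave 437 and 56. Leaving out 1 library in turn gave 0 to 31 members and 0 to 2713 genes higher, 0 to 2355 genes lower, and a median member log2 fold change of 2.42 to 5.58; the calls came only without irradiated 1 or irradiated 2, when the lone library is taken to vary like the unirradiated pair, and without either unirradiated library edgeR called 0. The summed member CPM and the median ratio between the irradiated libraries moved by less than their spread under each scaling, the ratio between 8.56 and 8.86.

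With the replicate number as a block edgeR called 2 genes higher and 0 lower over all genes, and 0 members. Samples share only a number: across genes the correlation of the same-numbered differences was -0.0992. Most members had under 10 reads in an unirradiated library, so small differences there were not detectable. Fold values over the unirradiated group are uncertain for those members.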

Other observations

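Fcgr2b, Fcgr4 and Lyz1, relatives of the members with similar sequence, were highest in irradiated 2. Fcgr2b, the inhibitory IgG receptor gene, was at 3.28 and 24.9 CPM in irradiated 1 and irradiated 2, against 1.97 and 1.53 CPM without radiation, and Fcgr4, an activating one, at 0.101 and 3.84 CPM with radiation against 0.144 and 0.0590 CPM without. Lyz1, the intestinal lysozyme gene next to Lyz2, had 0 and 81 reads with radiation against 2 and 0 without. For Fcgr4 and Lyz1, irradiated 1 did not lie above both unirradiated libraries.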
